A study of Mus musculus with 19 samples.

Results

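Proximal signalling by the T cell receptor was described through 9 genes: the kinases Lck, Fyn and Zap70, the adaptors Lat and Lcp2, the phosphatases Ptpn6 and Ptpn22, and the ubiquitin ligases Cbl and Cblb. They were taken by gene symbol, with no cut on their values but with earlier results of these data known. They are 9 of the 53656 genes of each deposited count table, and all 9 passed the filter on low counts in every fit. Expression was measured by RNA sequencing in 19 libraries of CD8 T cells from C57BL/6 mice that carry a transgenic receptor of known specificity. Levels are normalized CPM, that is counts scaled to a common library size with TMM, a correction of library totals for differences in RNA composition, and errors of levels are standard deviations between libraries.

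Of the 7 groups, 5 held 3 libraries each of cells sorted from mice. Naive cells were CD8+ and low for CD44 and carried the SV40-I receptor, which recognises the large T antigen of the virus SV40. Early cells were Thy1.1+ SV40-I cells isolated from malignant liver lesions at days 8 to 9 and sorted as high (marker-high) or low (marker-low) for PD1, LAG3 and CD39, surface proteins of chronically stimulated T cells. Late cells came from such lesions at days 20 to 21 and were either Thy1.1 SV40-I cells, which recognise the tumour antigen, or Ly5.1 OT-I cells, which recognise ovalbumin. The other 2 groups held 2 libraries each of naive SV40-I cells that were stimulated in culture with antibodies to CD3 and CD28, transduced with a retrovirus for GFP alone or for the nuclear factor TOX with GFP, expanded with IL-2 and sorted as GFP+. Naive and cultured libraries therefore differ from the tumour-derived ones also in where the cells had been kept. File headings call the marker-high libraries WT and the marker-low libraries KO. No label gives a genotype, and in that pair of groups a gate and a genotype cannot be told apart. Splenocytes are given as the source of all libraries, also of those titled as liver lesions. Whether each replicate is another animal or culture is not given, and the p-values here measure only the spread between libraries, part of which may be technical.

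Library totals ran from 37006508 to 54195918 counts, and the fewest counts behind any value of the 9 genes were 272, for Cbl. All 7 CD8 T cell markers examined, from Cd8a to Trac, were above 1 CPM in every group, with a summed level of 4462 to 28450 CPM, lowest in the cultured cells. Markers of other cells moved with some groups. The 10 hepatocyte markers summed to 900.5 and 1654 CPM in late OT-I replicates 2 and 3 and to 1395 CPM in late SV40-I replicate 2, against 0.291 to 55.02 CPM in the other 16 libraries. The 10 macrophage markers summed to 1037 to 2311 CPM in marker-high and 112 to 2423 CPM in marker-low libraries, against 83.0 to 194 CPM in naive ones, and the 7 neutrophil markers were highest in marker-low replicate 2, at 3346 CPM. The erythroid and platelet list summed to 1335 to 3430 CPM in late OT-I and 107 to 862 CPM in late SV40-I libraries, mostly haemoglobin RNA. The 6 NK cell markers, some of which activated CD8 T cells also make, summed to 11.3 to 25.8 CPM in naive and 121 to 723 CPM in tumour-derived libraries. Of these, Ncr1 was at 0 to 25.5 CPM, Klrb1c was at 321 to 701 CPM in late OT-I and 130.2 to 271 CPM in late SV40-I, and Fcer1g at 6.00 to 17.3 CPM and 159 to 233 CPM. NK cells also express Zap70, Fyn and Ptpn6, and their part in the differences of these genes was not tested. Tox averaged 890 ± 163 CPM in late SV40-I, 25.4 ± 6.16 CPM in late OT-I, 583 ± 205 CPM in marker-high, 98.4 ± 43.8 CPM in marker-low and 109.8 ± 18.8 CPM in naive cells (SD, n = 3). In culture it averaged 115 ± 22.5 CPM with the TOX vector and 14.3 ± 4.5 CPM without it (SD, n = 2). Pdcd1, the gene of PD1, averaged 2787 ± 719.8 CPM in the marker-high group and 549.7 ± 168 CPM in the marker-low group.

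When a T cell receptor meets its antigen, Lck, a Src family kinase held by the CD8 coreceptor, phosphorylates the receptor's CD3 chains. The kinase ZAP-70, made from Zap70, binds these chains, is activated by Lck and phosphorylates LAT and SLP-76 (made from Lcp2), scaffolds on which the complexes that raise calcium and activate Ras are built. Fyn is another Src family kinase of T cells. SHP-1 (made from Ptpn6) and PTPN22 are tyrosine phosphatases that limit this cascade, and c-Cbl and Cbl-b are ubiquitin ligases that target activated receptors and kinases; loss of Cbl-b lets T cells respond without costimulation. Activity of these proteins is set largely by phosphorylation, which RNA levels do not show.

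Compared per kilobase of exon, Lck was the most abundant of the 9 RNAs and Cbl the least in all 7 groups. In naive cells the mean level was 2073 CPM per kb for Lck, 447 for Lat, 357 for Ptpn6, 133 for Lcp2, 86.1 for Zap70, 36.04 for Ptpn22, 7.16 for Cblb, 4.69 for Fyn and 1.23 for Cbl. Lat, second in naive cells, was the fifth in marker-high cells at 107 CPM per kb and also the fifth in late SV40-I cells at 128, whereas Zap70 took the third place in late SV40-I cells at 191 CPM per kb. Between the lowest and the highest group mean, Lcp2 differed 2.11-fold and Ptpn22 2.51-fold, while Fyn differed 7.90-fold and Cbl 7.72-fold.

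**Figure D1:**
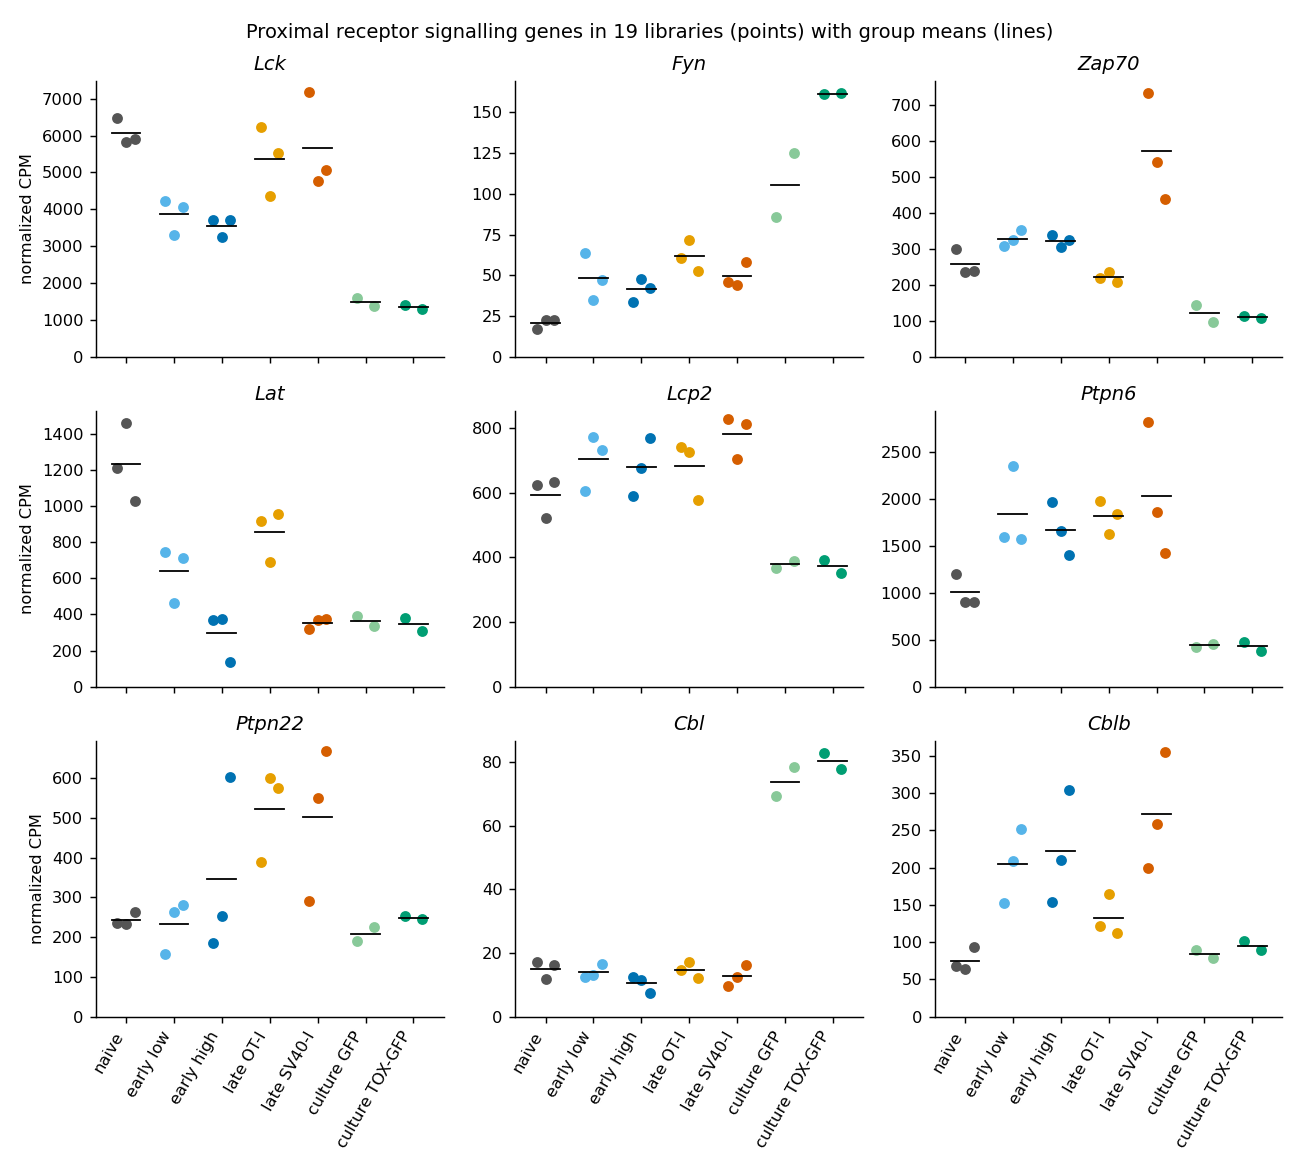
Normalized CPM (vertical axes, each from 0) of the 9 genes in every library, by group; points are libraries in replicate order and lines are group means. Lck ranged from 1303 to 7184 CPM and was lowest in the cultured groups, Fyn and Cbl were highest there, and Zap70 was highest in the 3 late SV40-I libraries.

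Bases upstream of the annotated start are shown for 4 of the genes, from RefSeq on GRCm38.p6: Lck and Zap70, the kinases of the first step, Lat, the scaffold that fell in late SV40-I cells, and Cbl, which rose in culture. RefSeq windows matched all 9 genes. Capitals mark matches, on either strand, of motifs of factors active in T cells. The first, the CRE TGACGTCA, is held by 1.55% of 32851 mouse promoter windows of 250 bases. The others were the AP-1 motif TGANTCA (6.75%), the NFAT core TGGAAA (18.6%), an ETS core CAGGAA (25.7%), the RUNX core TGTGGT (14.0%), an E-box CAGNTG (44.8%) and the TCF1 and LEF1 core CTTTGA (13.8%). A match is a run of letters and no measure of binding. The Lck window is chr4:129573642-129573891 (minus strand, before the upstream one of its start sites), that of Zap70 chr1:36761548-36761797 (plus strand, the first of its start sites), that of Lat chr7:126369571-126369818 (minus strand) and that of Cbl chr9:44234050-44234296 (minus strand). Exonic bases were left out of the sequences shown.
Lck: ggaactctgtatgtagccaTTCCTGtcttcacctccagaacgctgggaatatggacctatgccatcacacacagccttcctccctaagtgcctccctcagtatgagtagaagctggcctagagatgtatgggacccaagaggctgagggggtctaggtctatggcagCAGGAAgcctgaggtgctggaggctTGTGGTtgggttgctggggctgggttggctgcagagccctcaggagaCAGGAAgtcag
Zap70: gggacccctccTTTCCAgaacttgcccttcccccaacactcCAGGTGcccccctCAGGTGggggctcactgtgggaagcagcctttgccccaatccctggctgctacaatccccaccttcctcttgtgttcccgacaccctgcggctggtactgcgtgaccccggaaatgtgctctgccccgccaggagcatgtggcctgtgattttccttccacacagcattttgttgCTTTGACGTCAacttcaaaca
Lat: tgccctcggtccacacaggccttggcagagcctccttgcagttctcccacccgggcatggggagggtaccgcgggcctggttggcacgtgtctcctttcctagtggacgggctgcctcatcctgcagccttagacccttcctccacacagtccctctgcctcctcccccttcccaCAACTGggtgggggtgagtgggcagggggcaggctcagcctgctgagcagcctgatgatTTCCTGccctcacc
Cbl: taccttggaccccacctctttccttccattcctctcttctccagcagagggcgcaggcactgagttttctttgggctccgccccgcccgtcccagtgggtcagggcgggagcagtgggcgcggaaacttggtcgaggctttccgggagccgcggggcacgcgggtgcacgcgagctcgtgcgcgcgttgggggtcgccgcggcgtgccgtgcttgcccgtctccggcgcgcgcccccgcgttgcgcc

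The Lck window held 3 ETS cores, at positions -231, -83 and -11 from the start, and 1 RUNX core at -58. That of Zap70 held the CRE at position -18, overlapping a TCF1 and LEF1 core at -21, with 1 NFAT core and 2 E-boxes farther upstream. The CRE letters were found in none of the other 12 windows of the 9 genes. That of Lat held 1 ETS core and 1 E-box, and that of Cbl held none of the 7 motifs. CpG content set the genes apart. Pairs were counted over all 250 bases before the first RefSeq start of each gene, exonic bases included. There were 33 CpG pairs for Cbl, a count reached by 4.03% of windows, 21 for Fyn and 14 for Cblb. Ptpn6 had 7, Lat 6, Zap70 6, Ptpn22 5, Lck 1 and Lcp2 0, with a median of 6 over all windows. The windows of Fyn and Cblb lie inside these genes as annotated for the counts, past their first annotated base. Fyn and Cbl, the genes that were highest in culture, had the windows with the most CpG pairs among these genes, as a description of 2 genes. Cblb, the next with 14, was not high in culture. It averaged 83.6 CPM with GFP, against 75.0 CPM in naive and 132.5 CPM in late OT-I cells.

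Lck, the kinase that starts the cascade, was close to its naive level in late tumour-derived cells and lower in early and cultured cells. It stood at 6467, 5828 and 5918 CPM in the naive libraries, 6233, 4355 and 5523 in late OT-I and 7184, 4752 and 5066 in late SV40-I. Early marker-low libraries gave 4220, 3296 and 4069 CPM and marker-high libraries 3717, 3240 and 3696, and the cultured ones 1596 and 1373 with GFP and 1405 and 1303 with TOX-GFP. Every early library was below every naive and late one, and every cultured library was below every early one. Lck fell 1.66-fold in marker-high cells against naive ones (log2 difference -0.73 ± 0.18 (SE), edgeR adjusted p = 0.0114). The fall was 1.53-fold in marker-low cells (log2 difference -0.62 ± 0.18 (SE), edgeR adjusted p = 0.0327). It was 4.09-fold in GFP cultures (log2 difference -2.03 ± 0.20 (SE), edgeR adjusted p = 3.82e-06). The difference of late SV40-I from naive cells had a 95% interval of -0.43 to 0.35 on the log2 scale. The marker-low call ended without any 1 of the 6 libraries compared, at adjusted p from 0.0516 to 0.0964 with differences of -0.57 to -0.69. The marker-high call ended without marker-high replicate 2 (-0.66, adjusted p = 0.0514).

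Fyn was higher than in naive cells in every other group. Its levels were 16.7, 22.2 and 22.4 CPM in naive cells, 63.8, 34.6 and 46.95 in marker-low, 33.7, 47.8 and 42.2 in marker-high, 60.7, 71.8 and 52.8 in late OT-I and 45.9, 43.8 and 58.1 in late SV40-I cells. The cultured libraries had 85.5 and 125 CPM with GFP and 161 and 162 with TOX-GFP, above every library from mice. No naive library reached the lowest value of another group. The 4 tumour-derived groups overlapped, except that every marker-high library (at most 47.8 CPM) was below every late OT-I library (at least 52.8 CPM). The rise over naive was 2.07-fold in marker-high (log2 difference 1.05 ± 0.25 (SE), edgeR adjusted p = 0.00919) and 2.43-fold in marker-low cells (log2 difference 1.28 ± 0.25 (SE), edgeR adjusted p = 0.00441). In late cells it was 3.15-fold for OT-I (log2 difference 1.66 ± 0.25 (SE), edgeR adjusted p = 0.00106) and 2.5-fold for SV40-I (log2 difference 1.32 ± 0.25 (SE), edgeR adjusted p = 0.00251). In GFP cultures it was 5.14-fold (log2 difference 2.36 ± 0.27 (SE), edgeR adjusted p = 1.02e-05). All 5 calls remained under every alternative tried.

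Zap70, the kinase recruited to phosphorylated CD3 chains, was highest in late SV40-I cells, the tumour-specific cells of days 20 to 21. Those libraries had 734, 542 and 438 CPM, against 219.9, 235 and 206 in late OT-I and 300.1, 235 and 238 in naive cells. Marker-low libraries had 308, 324 and 353 CPM and marker-high libraries 339, 306 and 324, and the cultured ones 145 and 96.1 with GFP and 112 and 107 with TOX-GFP. The lowest late SV40-I library was above every other library of the series, early groups overlapped each other, and cultured libraries were below all others. The level in late SV40-I cells was 2.59-fold that in late OT-I cells (log2 difference 1.37 ± 0.19 (SE), edgeR adjusted p = 0.000516). It was 2.31-fold that in naive cells (log2 difference 1.21 ± 0.18 (SE), edgeR adjusted p = 0.000558). It was 1.79-fold that in marker-high cells (log2 difference 0.84 ± 0.18 (SE), edgeR adjusted p = 0.0182). In GFP cultures Zap70 fell 2.14-fold below naive cells (log2 difference -1.10 ± 0.21 (SE), edgeR adjusted p = 0.00101). Against OT-I cells the difference was 1.14 to 1.54 and stayed called without any 1 library. Without the 3 hepatocyte-rich libraries, which leaves 1 OT-I library whose spread is assumed to be that of the other groups, it was 1.39, adjusted p = 0.106. The call against marker-high cells ended without late SV40-I replicate 1 (0.62, adjusted p = 0.0659), marker-high replicate 1 (0.89, adjusted p = 0.0599) or marker-high replicate 2 (0.80, adjusted p = 0.0958). It also ended with only the groups compared (0.84, adjusted p = 0.106) and without the hepatocyte-rich libraries (0.91, adjusted p = 0.104).

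Lat, the membrane scaffold phosphorylated by ZAP-70, was lower in late SV40-I, marker-high and cultured cells than in naive or late OT-I cells. Naive libraries had 1215, 1463 and 1032 CPM, late OT-I libraries 917, 692 and 959 and marker-low libraries 749, 465 and 711. Marker-high libraries had 372, 377 and 138 CPM, late SV40-I libraries 318, 371 and 375, GFP cultures 394 and 339 and TOX-GFP cultures 380.1 and 309. The libraries of the last 4 groups lay below every naive, late OT-I and marker-low library, and marker-high replicate 3 was the lowest of all. Lat fell 2.42-fold in late SV40-I against late OT-I cells (log2 difference -1.28 ± 0.32 (SE), edgeR adjusted p = 0.025). Against naive cells Lat fell 4.04-fold in marker-high (log2 difference -2.01 ± 0.33 (SE), edgeR adjusted p = 0.000865) and 3.35-fold in late SV40-I cells (log2 difference -1.74 ± 0.32 (SE), edgeR adjusted p = 0.00241). The fall in GFP cultures was 3.38-fold (log2 difference -1.76 ± 0.35 (SE), edgeR adjusted p = 0.00134). The 3 calls against naive cells remained under every alternative tried. Between marker-high and marker-low cells the groups did not overlap but the difference was not called (log2 difference -1.11 ± 0.32 (SE), edgeR adjusted p = 0.143, interval -1.79 to -0.42). DESeq2 called it (-1.11, adjusted p = 0.0348). Marker-low cells differed from naive ones by a log2 difference of -0.91, edgeR adjusted p = 0.0665. That difference was called by DESeq2 (-0.94, adjusted p = 0.0278), with the stricter filter (-0.96, adjusted p = 0.0485), with only the groups compared (-0.96, adjusted p = 0.0314) and with all 19 libraries (-0.95, adjusted p = 0.0397). Late OT-I cells differed from naive ones by a log2 difference of -0.47, edgeR adjusted p = 0.456.

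The Lat call between late SV40-I and OT-I cells ended without late OT-I replicate 1 (-1.23, adjusted p = 0.0718) or 3 (-1.18, adjusted p = 0.0834). It also ended without late SV40-I replicate 1 (-1.21, adjusted p = 0.0936), 2 (-1.34, adjusted p = 0.0677) or 3 (-1.31, adjusted p = 0.0689). Without the 3 hepatocyte-rich libraries the difference was -1.44, adjusted p = 0.277. The macrophage sums of marker-high and marker-low libraries, given above, overlapped. Lat is also made by platelets, whose genes Pf4, Ppbp, Itga2b and Gp9 were each at 0.0246 to 2.48 CPM in late OT-I and at 0 to 0.701 CPM in late SV40-I libraries. Early libraries had more, at 0.328 to 90.1 CPM in marker-low and 0.267 to 9.13 CPM in marker-high cells. The highest of these was Itga2b in both groups. The part of platelets in the Lat differences was not tested. In bulk libraries fewer cells of a type and less RNA per cell cannot be told apart, for Lat and for the other genes.

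Lcp2, the gene of the cytosolic scaffold SLP-76 that docks on LAT, varied little. Naive libraries had 623, 522 and 635 CPM, and the 12 tumour-derived libraries had 577 to 830.0 CPM. Group means were 679.5 ± 90.6 in marker-high, 682 ± 91.2 in late OT-I, 704 ± 88.6 in marker-low and 784 ± 67.1 in late SV40-I cells (SD, n = 3). Cultured libraries had 369 and 389.5 CPM with GFP and 393 and 352 with TOX-GFP, below every library from mice. The late SV40-I libraries were all above the naive ones, by 1.37-fold, without a call (log2 difference 0.46 ± 0.16 (SE), edgeR adjusted p = 0.0602), and DESeq2 called it (0.46, adjusted p = 0.0322). Lcp2 fell 1.57-fold in GFP cultures (log2 difference -0.65 ± 0.17 (SE), edgeR adjusted p = 0.00722). That call ended with scaling by library totals alone (-0.27, adjusted p = 0.246), without GFP replicate 1 (-0.51, adjusted p = 0.112) and without GFP replicate 2 (-0.64, adjusted p = 0.0513).

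Ptpn6, the gene of the phosphatase SHP-1, was higher than naive in every tumour-derived group and lower in culture. It stood at 1201, 904 and 897 CPM in naive libraries, 1589, 2342 and 1569 in marker-low, 1961, 1650 and 1395 in marker-high, 1979, 1626 and 1832 in late OT-I and 2810, 1861 and 1425 in late SV40-I libraries. Cultures had 422 and 453 CPM with GFP and 472 and 382 with TOX-GFP. Every tumour-derived library was above every naive one and every cultured library was below. Ptpn6 rose 2.12-fold over naive in late SV40-I (log2 difference 1.08 ± 0.26 (SE), edgeR adjusted p = 0.0105) and 1.89-fold in late OT-I cells (log2 difference 0.92 ± 0.26 (SE), edgeR adjusted p = 0.0455). The rise was 1.88-fold in marker-low (log2 difference 0.91 ± 0.26 (SE), edgeR adjusted p = 0.0282) and 1.72-fold in marker-high cells (log2 difference 0.78 ± 0.25 (SE), edgeR adjusted p = 0.0416). In GFP cultures Ptpn6 fell 2.29-fold (log2 difference -1.19 ± 0.27 (SE), edgeR adjusted p = 0.00297).

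Each of these calls for Ptpn6 was lost under some alternative. In late SV40-I cells it ended without the 3 hepatocyte-rich libraries (1.103, adjusted p = 0.0556) and held with any 1 library left out (highest adjusted p = 0.0483). In late OT-I cells the call ended without any 1 of the 6 libraries compared, at differences of 0.84 to 1.07 and adjusted p from 0.0606 to 0.16. It also ended there with RLE factors (0.90, adjusted p = 0.0614) and without the hepatocyte-rich libraries (1.03, adjusted p = 0.306). In marker-high cells it ended without naive replicate 2 or 3 or marker-high replicate 1 or 2 (0.64 to 0.797, adjusted p from 0.0895 to 0.15), with RLE factors (0.75, adjusted p = 0.0578) and without a filter (0.74, adjusted p = 0.0626). In marker-low cells it ended without naive replicate 2 or 3 (0.83 and 0.85, adjusted p = 0.0915 and 0.102) or marker-low replicate 2 (0.62, adjusted p = 0.156), and with only the groups compared (0.87, adjusted p = 0.0507). Ptpn6 is made by most blood cells, and marker-low replicate 2, its highest early library, also had the highest macrophage and neutrophil sums, 2423 and 3346 CPM. In late SV40-I replicate 1, where Ptpn6 was highest of all, those sums were 41.7 and 2.04 CPM. The part of other cells in the early groups was not tested. The fall in culture lost its call without GFP replicate 1 (-1.04, adjusted p = 0.0598). Of the Ptpn6 exon bases, 6.96% overlap a gene on the other strand, which had at most 7.42 CPM, and counting did not use strand.

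Ptpn22, a phosphatase that acts on Lck and ZAP-70, varied widely between replicates of the tumour-derived groups. Its levels were 236, 233 and 263 CPM in naive, 158, 264 and 280.1 in marker-low, 185, 253 and 603 in marker-high, 389, 599 and 575 in late OT-I and 291, 549.8 and 668 in late SV40-I libraries. In culture it had 190.3 and 225 CPM with GFP and 252 and 244 with TOX-GFP. All 6 late libraries were above all 3 naive ones, and marker-high replicate 3 stood apart from its group. The 2.13-fold difference of late SV40-I from naive cells was not called (log2 difference 1.09 ± 0.40 (SE), edgeR adjusted p = 0.0792). Nor was the 2.23-fold difference of late OT-I cells (log2 difference 1.16 ± 0.40 (SE), edgeR adjusted p = 0.109). In late SV40-I cells DESeq2 (1.09, adjusted p = 0.0469) and a fit of only the groups compared (1.097, adjusted p = 0.0357) called it, as did leaving out late SV40-I replicate 1 (1.37, adjusted p = 0.0447). In late OT-I cells the fit of only the groups compared called it (1.13, adjusted p = 0.0122).

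Cbl and Cblb, the genes of c-Cbl and Cbl-b, had different patterns. Cbl was near its naive level in every group from mice, at 17.2, 11.9 and 16.3 CPM in naive, 12.4, 12.9 and 16.4 in marker-low, 12.4, 11.4 and 7.45 in marker-high, 14.8, 17.04 and 12.03 in late OT-I and 9.54, 12.4 and 16.2 in late SV40-I libraries. The cultured libraries had 69.3 and 78.7 CPM with GFP and 83 and 78 with TOX-GFP, and each was more than all 15 libraries from mice. Cbl rose 4.89-fold in GFP cultures against naive cells (log2 difference 2.29 ± 0.29 (SE), edgeR adjusted p = 2.41e-05), a call that remained under every alternative tried. Against naive cells the log2 differences of Cbl in the tumour-derived groups were -0.50 in marker-high (interval -1.14 to 0.15), -0.09 in marker-low (-0.73 to 0.56), 0.01 in late OT-I (-0.64 to 0.66) and -0.20 in late SV40-I cells (-0.84 to 0.45), none of them called.

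Cblb was higher in tumour-derived than in naive cells. Naive libraries had 68.5, 63.7 and 92.8 CPM, marker-low 152, 209 and 252, marker-high 154, 210.4 and 304, late OT-I 122, 164 and 112 and late SV40-I 199.9, 259 and 356. In culture Cblb had 88.7 and 78.4 CPM with GFP and 101 and 89.2 with TOX-GFP, within or just above the naive range. All 12 tumour-derived libraries were above the 3 naive ones. Cblb rose 3.75-fold in late SV40-I over naive (log2 difference 1.91 ± 0.30 (SE), edgeR adjusted p = 0.00067). The rise was 3.04-fold in marker-high (log2 difference 1.61 ± 0.29 (SE), edgeR adjusted p = 0.00197) and 2.78-fold in marker-low cells (log2 difference 1.48 ± 0.29 (SE), edgeR adjusted p = 0.00496). These 3 calls remained under every alternative tried. The 1.84-fold difference in late OT-I cells was not called (log2 difference 0.88 ± 0.29 (SE), edgeR adjusted p = 0.0895), and DESeq2 called it (0.86, adjusted p = 0.0437). Late SV40-I cells had 2.04-fold the level of late OT-I cells (log2 difference 1.03 ± 0.29 (SE), edgeR adjusted p = 0.0433). That call ended without late OT-I replicate 1 (0.96, adjusted p = 0.141), 2 (1.16, adjusted p = 0.0658) or 3 (0.92, adjusted p = 0.158). It ended without late SV40-I replicate 2 (1.05, adjusted p = 0.0768) or 3 (0.80, adjusted p = 0.166), with library totals alone (0.95, adjusted p = 0.0812), without a filter (1.00, adjusted p = 0.0633) and without the hepatocyte-rich libraries (1.15, adjusted p = 0.418). In GFP cultures Cblb differed from naive cells by a log2 difference of 0.16 (interval -0.49 to 0.80).

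Ratios within a library, per kilobase of exon, compare paired enzymes independently of library scaling and are given as a description. The Lck to Fyn ratio was 577, 390.0 and 394 in naive libraries and between 90.4 and 233 in the 12 tumour-derived ones. It was 27.8 and 16.4 in GFP and 13 and 12 in TOX-GFP cultures, and the 3 kinds of library did not overlap. The Cbl to Cblb ratio was 0.213, 0.158 and 0.149 in naive, 0.103, 0.0882 and 0.0913 in late OT-I and 0.0405, 0.0407 and 0.0388 in late SV40-I libraries, and 0.663 to 0.851 in culture. Early libraries had a Cbl to Cblb ratio of 0.0208 to 0.0694, below every late OT-I and naive library. The Zap70 to Lck ratio was 0.0454, 0.0395 and 0.0393 in naive and 0.0345, 0.0529 and 0.0365 in late OT-I libraries, which overlapped, and 0.0685 to 0.112 in all libraries of the other 5 groups. Tumour-derived SV40-I cells and cultured SV40-I cells thus shared a Zap70 to Lck ratio above that of naive and OT-I cells, with the highest Zap70 levels in late SV40-I cells and the lowest Lck levels in culture. The Ptpn22 to Ptpn6 ratio spread from 0.0390 to 0.194 among tumour-derived libraries and was 0.187 to 0.264 in culture.

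**Figure D2:**
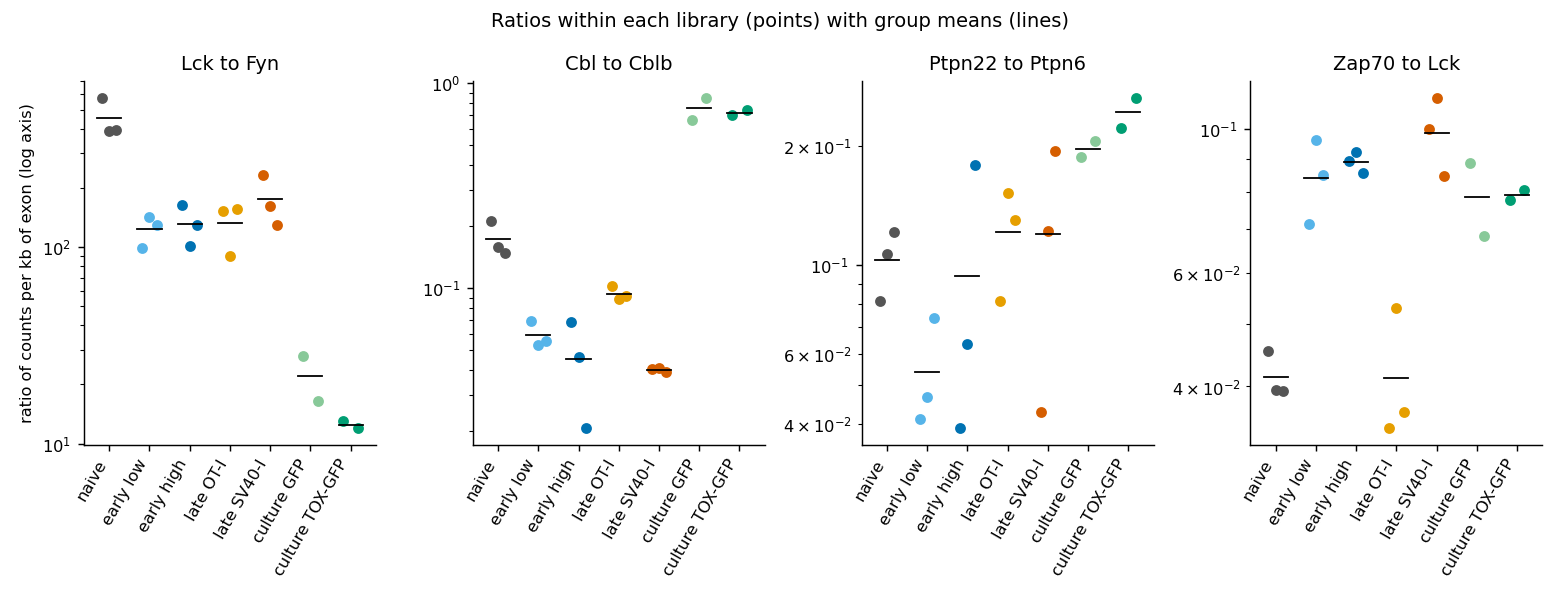
Ratios of 4 pairs of genes within each library (points; counts per kb of exon, log axes) with group means (lines). The Lck to Fyn ratio was 390 to 577 in naive and 12.0 to 27.8 in cultured libraries, and the Cbl to Cblb ratio was 0.0388 to 0.0407 in late SV40-I and 0.663 to 0.851 in cultured libraries.

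Against naive cells, the tumour-derived groups and the GFP cultures were compared to describe how these genes differ between them. All naive cells carried the SV40-I receptor, so for late OT-I cells another receptor and another state cannot be told apart. The 5 comparisons share the 3 naive libraries, so their values are set side by side only. In late SV40-I cells 4 of the 9 genes rose (Fyn, Zap70, Ptpn6 and Cblb) where 11.1% of all 16404 genes tested rose, and 1, Lat, fell where 6.86% fell. In late OT-I cells 2 rose (Fyn and Ptpn6; 5.06% of all genes) and 0 fell (2.29%). In marker-high cells 3 rose (Fyn, Ptpn6 and Cblb; 14.3%) and 2 fell (Lck and Lat; 9.1%). In marker-low cells 3 rose (Fyn, Ptpn6 and Cblb; 10.6%) and 1, Lck, fell (6.21%). In GFP cultures 2 rose (Fyn and Cbl; 17.6% of 18608 genes) and 5 fell (Lck, Zap70, Lat, Lcp2 and Ptpn6; 15%). Ptpn6 and Zap70 thus had opposite called directions in late SV40-I cells and in GFP cultures, and Fyn and Lat the same. The median log2 difference of the 9 genes was 1.08 in late SV40-I, 0.26 in late OT-I, 0.37 in marker-high, 0.28 in marker-low and -0.65 in cultured cells, beside 0.05, 0.04, 0.06, 0.09 and 0.00 over all genes tested. The CD8 T cell marker sum also differed, at 20820 to 27950 CPM in naive, 8553 to 17360 CPM in early and 4462 to 6133 CPM in cultured libraries, and its part in the lower Lck, Lat and other levels was not tested. With library totals alone the culture comparison shifted by 0.26 for the median gene, the share of called genes that were higher went from 54% to 67.4%, and the difference of Ptpn22 went from -0.23 to 0.14.

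**Figure D3:**
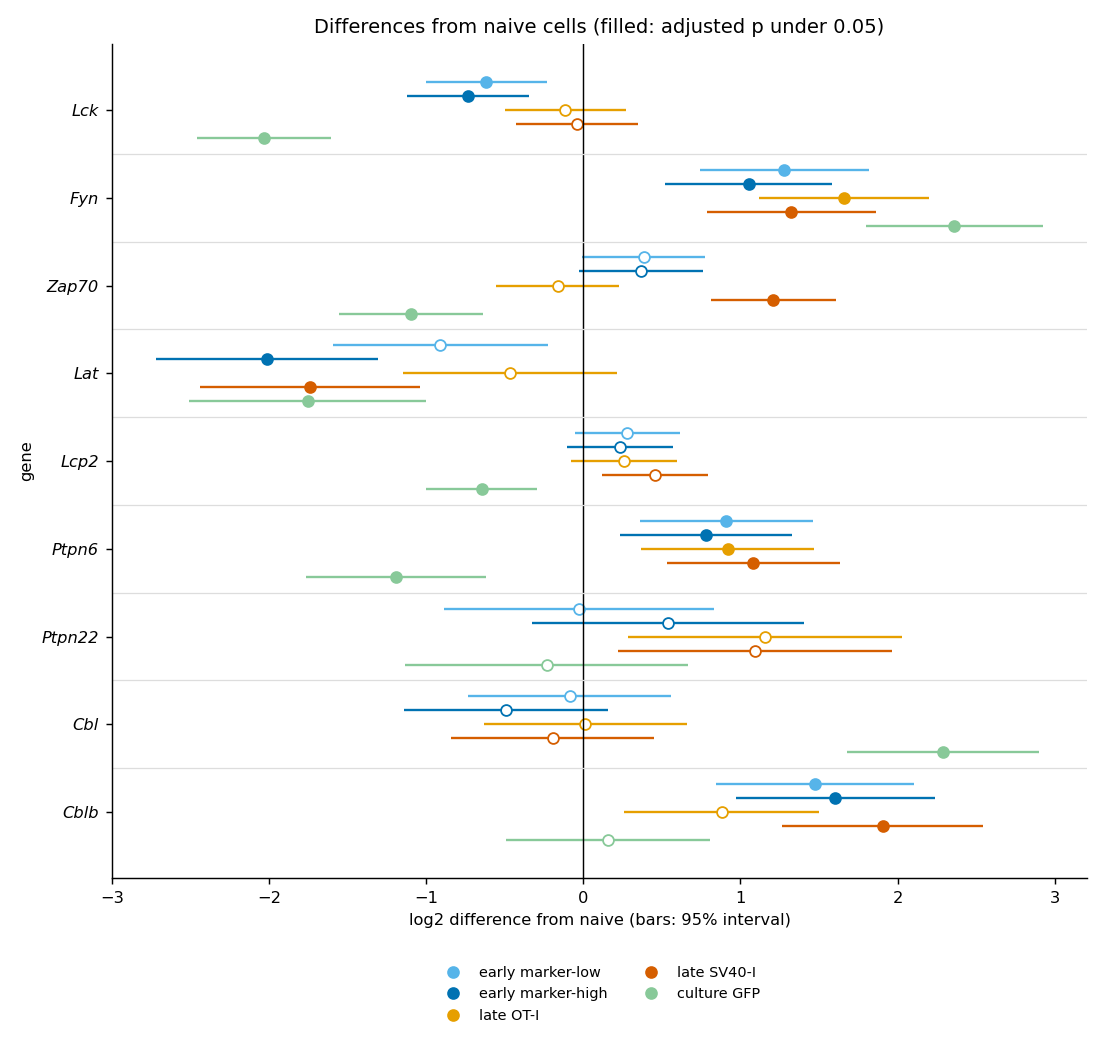
Log2 differences from naive cells (horizontal axis) of the 9 genes in 4 tumour-derived groups and in GFP cultures; bars are 95% intervals and filled points are called at an adjusted p under 0.05. Fyn was higher in all 5 groups (1.05 to 2.36), and Ptpn6 was higher in the 4 tumour-derived groups (0.78 to 1.08) and lower in culture (-1.19).

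Tumour-specific and other cells of the same age in lesions were compared, as cells that do and do not recognise the tumour antigen. They also differ in the transgenic receptor and in the donor marker, Thy1.1 or Ly5.1. Antigen recognition cannot be told apart from these here. Against late OT-I cells, late SV40-I cells had more Zap70 and Cblb (2 of 9 genes higher, beside 4.91% of all genes) and less Lat (1 of 9 lower, beside 4.11%). Lck, Fyn, Lcp2, Ptpn6, Ptpn22 and Cbl were not called, with log2 differences from -0.33 for Fyn (interval -0.86 to 0.19) to 0.20 for Lcp2 (-0.14 to 0.53). Without the 3 hepatocyte-rich libraries none of the 9 was called, while the differences of Zap70, Lat and Cblb were 1.39, -1.44 and 1.15. The summed level of the 7 CD8 T cell markers ran from 24850 to 28450 CPM for late SV40-I and from 11220 to 13380 CPM for late OT-I cells, and the haemoglobin-rich list was higher in OT-I cells. The part of both in these differences was not tested.

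Between marker-high and marker-low cells at days 8 to 9, 0 of the 9 genes were higher (0.475% of all genes) and 0 lower (0.719%) by edgeR, with 1 gene, Lat, at an unadjusted p under 0.05 and called by DESeq2. For the other 8 genes log2 differences ran from -0.41 for Cbl (interval -1.06 to 0.24) to 0.57 for Ptpn22 (-0.30 to 1.43), the latter being -0.09 without marker-high replicate 3. In late SV40-I against early marker-high cells, 2 of 9 genes, Lck and Zap70, were higher (1.76% of all genes) and 0 lower (3.57%). The labels give no PD1, LAG3 and CD39 gate for late SV40-I cells, so day and gate cannot be told apart in this comparison. Lck differed 1.61-fold (log2 difference 0.69 ± 0.18 (SE), edgeR adjusted p = 0.043). Its call ended without marker-high replicate 1 (0.74, adjusted p = 0.113) or 2 (0.63, adjusted p = 0.184). It also ended without late SV40-I replicate 1 (0.48, adjusted p = 0.139), 2 (0.83, adjusted p = 0.059) or 3 (0.78, adjusted p = 0.0674), without a filter (0.69, adjusted p = 0.0621), with only the groups compared (0.69, adjusted p = 0.122) and without the hepatocyte-rich libraries (0.83, adjusted p = 0.0699). The macrophage sum was 1037 to 2311 CPM in marker-high and 41.7 to 322 CPM in late SV40-I libraries, and its part in these differences was not tested.

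Forced TOX in cultured cells was compared with GFP alone to see what the factor changes without tumour. By edgeR 0 of the 9 genes were higher (0% of 14614 genes) and 0 lower (0%), with 1906 genes at an unadjusted p under 0.05 and a smallest adjusted p of 0.207, while DESeq2 called 494 genes and 0 of the 9. Tox, the forced gene, was itself not called (log2 difference 2.96 ± 0.26 (SE), edgeR adjusted p = 0.207). With 2 libraries per group this fit called no gene, so 0 calls do not show that the 9 genes were unchanged. Fyn was the 1 gene of the 9 at an unadjusted p under 0.05, with both TOX-GFP libraries above both GFP libraries (log2 difference 0.57 ± 0.18 (SE), edgeR adjusted p = 0.303). Both TOX-GFP libraries were also above both GFP libraries for Ptpn22 (edgeR adjusted p = 0.497) and Cblb (edgeR adjusted p = 0.719). For Cblb the nearest libraries were at 89.2 and 88.7 CPM. How many of all genes separate in this way with 2 libraries per group was not counted. Such a separation, also that of Fyn, is therefore only a description. For the other 8 genes the intervals lay between -0.71 and 0.50 on the log2 scale, the widest being that of Zap70 (-0.71 to 0.33). Without GFP replicate 2, the library with the higher Fyn and lower Zap70, Fyn (0.84, adjusted p = 0.0221) and Zap70 (-0.48, adjusted p = 0.0369) were called, on 1 GFP library that is assumed to vary like the TOX-GFP ones.

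**Figure D4:**
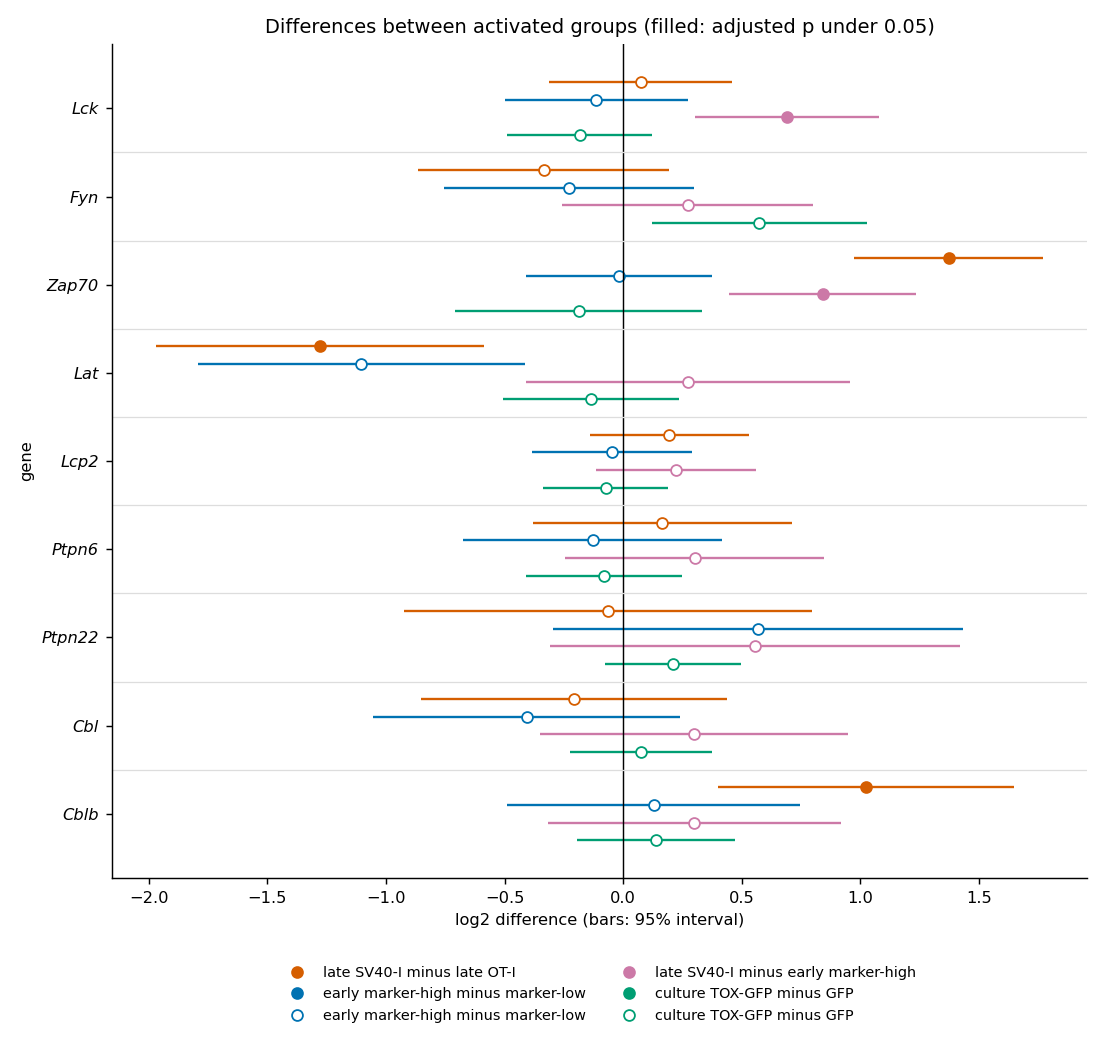
Log2 differences between tumour-derived groups and between cultures (horizontal axis) for the 9 genes. Bars are 95% intervals and filled points are called at an adjusted p under 0.05. Zap70 (1.37), Cblb (1.03) and Lat (-1.28) differed between late SV40-I and OT-I cells, and Lck (0.69) and Zap70 (0.84) between late SV40-I and marker-high cells. No gene was called between TOX-GFP and GFP cultures, where the forced gene Tox was not called either.

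The other genes of the pathway were described in 3 lists: 5 kinases, 17 adaptors and activators, and 17 phosphatases and other inhibitors, all of them tested. The lists do not sort genes strictly by effect. The kinases include Csk, which holds Lck inactive, the adaptors include the inhibitory Lax1, and the phosphatases include Ptprc, which removes an inhibitory phosphate. Counts per list therefore do not measure activators or inhibitors gained or lost. The shares of all genes that rose and fell, beside which their counts stand, were 11.1% and 6.86% in late SV40-I, 5.06% and 2.29% in late OT-I, 14.3% and 9.1% in marker-high cells, 10.6% and 6.21% in marker-low cells and 17.6% and 15% in GFP cultures, all against naive cells. They were 4.91% and 4.11% for late SV40-I against OT-I, 0.475% and 0.719% for marker-high against marker-low, and 1.76% and 3.57% for late SV40-I against marker-high cells. Of the list counts below, 8 of 12 moved by over 1.5 times without the hepatocyte-rich libraries, 8 of 27 with DESeq2, 5 of 24 with only the groups compared, and 4 of 9 without marker-high replicate 3. Against naive cells the kinases had 0 higher in the 4 tumour-derived groups and 2 lower in late SV40-I, 1 in late OT-I, 3 in the marker-high and 1 in the marker-low group, with medians of -0.12, -0.085, -1.09 and -0.49. Tec, a Tec family kinase, fell in all 4, in late SV40-I cells to 33.8 ± 15.7 against 146 ± 6.31 CPM, log2 difference -2.06 ± 0.42, edgeR adjusted p = 0.00436. In marker-high cells the fall of Tec was to 19.4 ± 9.51 against 146 ± 6.31 CPM, log2 difference -2.87 ± 0.43, edgeR adjusted p = 0.000513. Prkcq, the gene of protein kinase C theta, fell in late SV40-I cells against late OT-I cells (46.8 ± 11.4 against 162 ± 31.8 CPM, log2 difference -1.80 ± 0.25, edgeR adjusted p = 0.00071) and against naive cells (-1.29, adjusted p = 0.00312). In GFP cultures Prkcq rose (440.1 ± 64.7 against 118 ± 10.7 CPM, log2 difference 1.90 ± 0.26, edgeR adjusted p = 5.11e-05). Csk, the kinase that holds Lck inactive, fell (111 ± 11.5 against 358 ± 41.1 CPM, log2 difference -1.69 ± 0.18, edgeR adjusted p = 7.12e-06), as did Txk (-2.27, adjusted p = 0.00279).

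Among the 17 adaptors and activators, 3 rose and 9 fell against naive cells in late SV40-I, 2 rose and 0 fell in late OT-I, 2 rose and 9 fell in marker-high, and 2 rose and 8 fell in marker-low cells, with medians of -0.63, -0.03, -1.85 and -0.65. Sh2d2a, the gene of the adaptor TSAd that binds Lck, rose in all 4, in late SV40-I cells to 5845 ± 945 against 435 ± 52.5 CPM, log2 difference 3.81 ± 0.26, edgeR adjusted p = 1.22e-06. It was higher there than in late OT-I cells (5845 ± 945 against 823 ± 58 CPM, log2 difference 2.82 ± 0.25, edgeR adjusted p = 2.06e-05). Lax1, an inhibitory membrane adaptor, also rose in all 4, in late OT-I cells to 489.8 ± 42.2 against 174 ± 18.4 CPM, log2 difference 1.55 ± 0.16, edgeR adjusted p = 4.64e-05. Sit1, another membrane adaptor, fell in the SV40-I groups, in late SV40-I cells to 84.9 ± 7.75 against 403 ± 77.5 CPM, log2 difference -2.19 ± 0.28, edgeR adjusted p = 0.000171. Grap2, the gene of GADS that links LAT to SLP-76, fell in marker-high cells to 28.3 ± 2.58 against 220.2 ± 42.7 CPM, log2 difference -2.92 ± 0.26, edgeR adjusted p = 8.26e-06. Against late OT-I cells, 1 adaptor was higher and 5 were lower in late SV40-I cells, with a median of -0.86. Tespa1 was lower there (3.44 ± 2.01 against 140.4 ± 1.77 CPM, log2 difference -5.37 ± 0.65, edgeR adjusted p = 0.000261). Pag1, the gene of an adaptor that brings Csk to the membrane, averaged 0.0565 CPM in late SV40-I, 4.90 CPM in late OT-I and 9.45 CPM in naive cells (edgeR adjusted p = 0.000137 and 3.24e-05). In the late SV40-I libraries 3 counts correspond to 0.0554 to 0.0706 CPM before TMM scaling. That mean thus rests on very few counts, and the size of the differences is uncertain. In GFP cultures 4 rose and 5 fell. Rasgrp1, the Ras activator downstream of LAT (388 ± 43.1 against 39.02 ± 12.7 CPM, log2 difference 3.32 ± 0.39, edgeR adjusted p = 1.58e-05), and Grb2 (1.97, adjusted p = 0.000178) rose, and Sit1 (-2.61, adjusted p = 1.9e-05) and Lax1 (-2.11, adjusted p = 8.45e-07) fell.

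Of the 17 phosphatases and other inhibitors, 9 rose and 2 fell against naive cells in late SV40-I, 4 rose and 1 fell in late OT-I, 7 rose and 4 fell in marker-high, and 5 rose and 5 fell in marker-low cells, with medians of 1.103, 0.46, 0.71 and 0.495. Ubash3b, the gene of the phosphatase STS-1 that acts on ZAP-70, rose in all 4, in late SV40-I cells to 70.3 ± 2.13 against 1.58 ± 0.4 CPM, log2 difference 5.53 ± 0.38, edgeR adjusted p = 1.36e-06. In late OT-I cells it rose to 23.5 ± 11.3 against 1.58 ± 0.4 CPM, log2 difference 3.95 ± 0.36, edgeR adjusted p = 1.76e-05. Ptpn7 rose in late SV40-I cells (691 ± 56.6 against 256 ± 56 CPM, log2 difference 1.49 ± 0.16, edgeR adjusted p = 4.58e-05). The diacylglycerol kinases, which remove the lipid that activates Ras and protein kinase C, had opposite directions. Dgka fell in late SV40-I cells against naive (216 ± 33.6 against 1236 ± 154 CPM, log2 difference -2.46 ± 0.17, edgeR adjusted p = 1.23e-06) and late OT-I cells (-1.33, adjusted p = 0.000266). Dgkz was higher than in late OT-I cells (384 ± 72.6 against 108 ± 13.1 CPM, log2 difference 1.83 ± 0.27, edgeR adjusted p = 0.000915). Ptprc, the gene of CD45 that removes the inhibitory phosphate of Lck, fell in late SV40-I cells (78.9 ± 28.5 against 296 ± 114 CPM, log2 difference -1.86 ± 0.57, edgeR adjusted p = 0.0381). In marker-high cells it fell too (58.5 ± 31.4 against 296 ± 114 CPM, log2 difference -2.31 ± 0.58, edgeR adjusted p = 0.0125). Against late OT-I cells 6 of these genes were higher, among them Ptpn11, the gene of SHP-2 (81.1 ± 20.5 against 16.4 ± 3.91 CPM, log2 difference 2.30 ± 0.35, edgeR adjusted p = 0.00119), and 1 was lower. Between marker-high and marker-low cells the 2 genes called over the 3 lists were Dgka and Sla2. Dgka was lower (242 ± 16.5 against 571 ± 68.4 CPM, log2 difference -1.23 ± 0.16, edgeR adjusted p = 0.00441), and Sla2, an adaptor that dampens receptor signals, was higher (454 ± 127 against 199.8 ± 36.1 CPM, log2 difference 1.19 ± 0.23, edgeR adjusted p = 0.0239). In late SV40-I against marker-high cells 2 adaptors (Lax1 and Grap2) were higher, 2 (Pag1 and Tespa1) lower and 1 inhibitor, Ubash3a, higher (0.84, edgeR adjusted p = 0.00556). In GFP cultures 5 genes of this list rose and 6 fell. Ndfip1, an activator of the ligase Itch (463 ± 43 against 4.76 ± 0.962 CPM, log2 difference 6.60 ± 0.76, edgeR adjusted p = 1.31e-05), and Ptpn2 (2.00, adjusted p = 0.00024) rose. Ubash3a (139 ± 3.53 against 503 ± 65.9 CPM, log2 difference -1.86 ± 0.16, edgeR adjusted p = 1.28e-06) and Dgka (-1.76, adjusted p = 4.64e-06) fell. In TOX-GFP against GFP cultures 0 of the 39 genes were called, in a fit that called no gene, not even Tox.

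**Figure D5:**
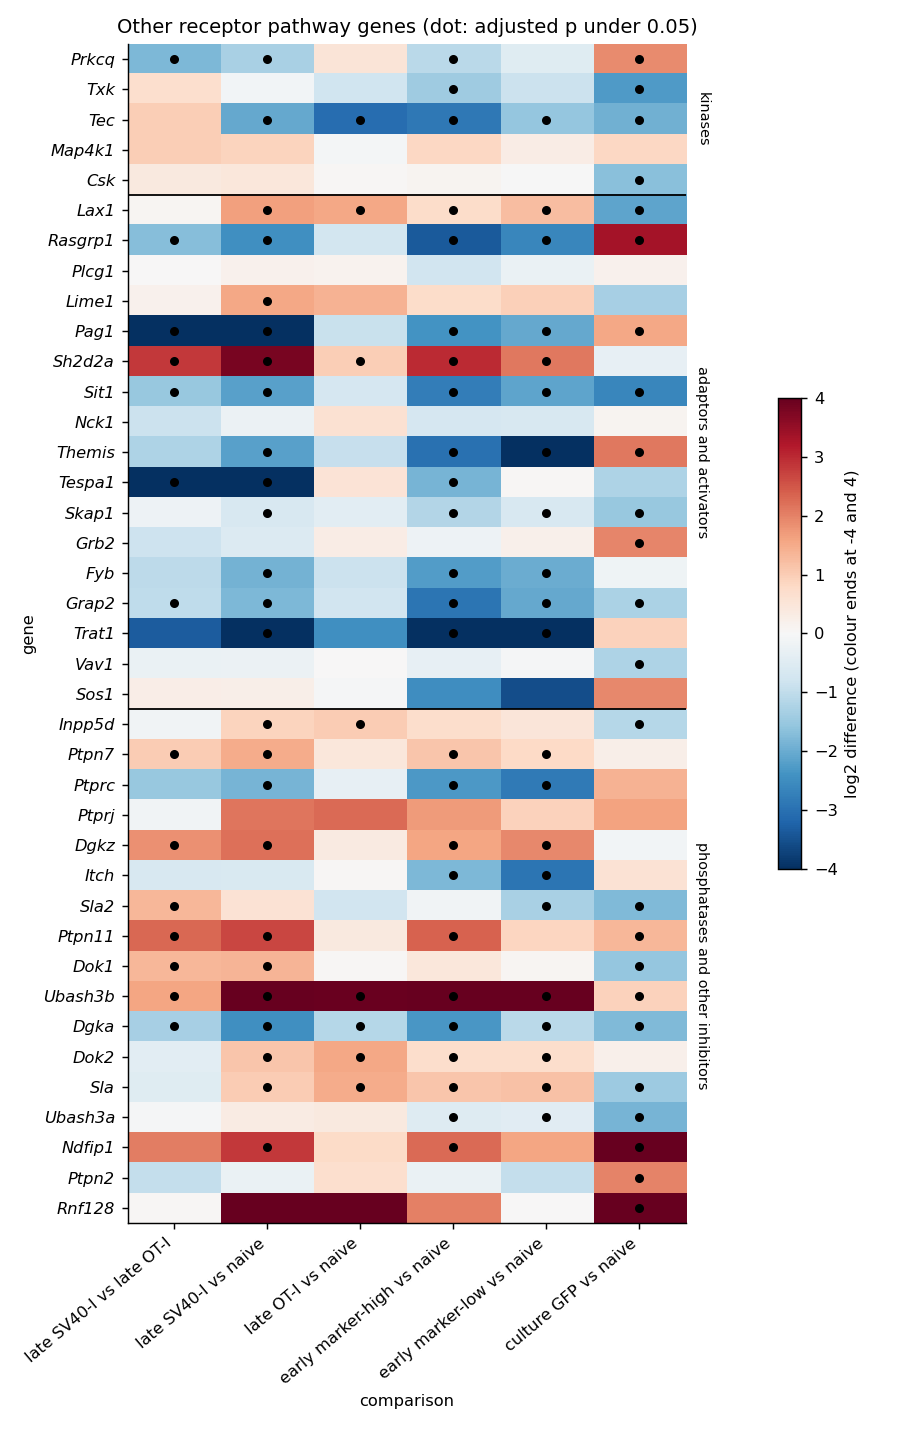
Log2 differences of 39 other receptor pathway genes (rows, in 3 lists) in 6 comparisons (columns), with red for higher in the first-named group, colours ending at -4 and 4, and a dot where the adjusted p was under 0.05. Ubash3b rises over naive cells in all tumour-derived groups (3.95 to 5.53), and Dgka is lower in every comparison shown (-2.46 to -1.08).

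For each of the 9 genes, the 3 genes with the nearest pattern over the 19 libraries were found among 7622 genes with a mean of at least 10 CPM, by the root mean square difference of log2 levels (CPM plus 0.5) centred on each gene's mean. They were Mtif3, Rmnd5b and Vrk3 for Lck (nearest at 0.161, where Lck itself had a standard deviation of 0.781), Vim, Ube2j1 and RP23-122F3.1 for Fyn (0.398 of 0.863), and Actr1b, Adck5 and Inpp5b for Zap70 (0.221 of 0.750). For Lat they were Cdkn2d, Cd3d and Saysd1 (0.322 of 0.833), and for Lcp2 Prosc, Becn1 and Rexo4 (0.118 of 0.392). Daglb, Pcsk7 and Fbxo22 were nearest to Ptpn6 (0.260 of 0.863), Aldh3a2, Rab27a and Magee1 to Ptpn22 (0.328 of 0.631), Uggt1, Baz1b and Tmem189 to Cbl (0.286 of 1.06), and Gyg, Tstd3 and Wiz to Cblb (0.298 of 0.731). Cd3d, the gene of a receptor chain, was the only gene of the receptor complex among these 27. None of the 9 genes was among the 3 nearest of another; the closest pair of them was Zap70 and Lcp2 at 0.458, followed by Zap70 and Ptpn6 at 0.462, and the farthest was Ptpn6 and Cbl at 1.87.

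The genes lie apart in the genome (GRCm38, from 1), at chr4:129548344-129573641 for Lck, chr10:39368855-39565381 for Fyn, chr1:36761798-36782818 for Zap70, chr7:126363824-126369570 for Lat, chr11:34046920-34092295 for Lcp2, chr6:124720707-124738714 for Ptpn6, chr3:103859795-103912247 for Ptpn22, chr9:44142976-44234049 for Cbl and chr16:52031225-52208048 for Cblb. Lck, Lat, Ptpn6 and Cbl are on the minus strand. Values are counts over all exons of a gene, so they do not tell its transcripts apart.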

How the data were processed

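RNA was measured by paired-end sequencing of SMART-seq V4 amplified libraries of sorted cells, per the labels' protocols. The protocol names no molecular identifiers, so counts are of fragments and may include PCR copies. The authors deposited raw counts per gene, made with featureCounts 1.6.2 on the GENCODE M17 annotation of GRCm38 without a strand option, per the file headers, and the submitters' processing notes also name STAR, FastQC and DESeq2.

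Counts were tested as deposited with edgeR 4.0.16 (R 4.3.3; limma 3.58.1): filterByExpr, TMM scaling, the robust quasi-likelihood F test, and Benjamini-Hochberg adjustment over all genes tested, called at an adjusted p under 0.05. The 15 libraries from mice were fitted together, the 4 cultured ones on their own, and all 19 for cultures against naive cells. The fits were also run on simulated counts that took their spread from the fits themselves. Such a run does not check the effect of other cells in the libraries, and no result here rests on it. Intervals are 95% intervals from the fits to the deposited counts. Levels come from TMM scaling over all 19 libraries.

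The 9 genes, the pathway and marker lists, the ratios and the comparisons were chosen with earlier results of these data known. All 9 genes are reported. Of the pathway lists, up to 2 called genes per list, direction and comparison with the smallest p were named, and the 3 nearest genes for each of the 9. A few of them are given again where they recur, and 1 gene of the kinase list is not reported here.

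Same-numbered libraries were checked for pairing by the correlation of their deviations from the group means. It was over 0.1 in each of 3 pairs only for marker-high against naive cells (0.106, 0.139 and 0.17). All p-values of the main fits, also for that comparison, are without pairing. A fit with the replicate number as a block called the same 5 of the 9 genes there. Its edgeR adjusted p was 0.0024 for Lck, 0.016 for Fyn, 0.00194 for Lat, 0.0273 for Ptpn6 and 0.000694 for Cblb. Heading numbers differ from title numbers in some groups. Replicates differed by 29.9 to 485 times counting noise (chi-square per degree of freedom), so none was counted as a copy.

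Alternatives were RLE factors, library totals alone, 2 other filters, DESeq2 1.42.0, other sets of libraries in the fit, the replicate block, leaving out each library, and leaving out the 3 hepatocyte-rich libraries. Promoter windows are RefSeq's on GRCm38.p6, and loci are from the deposited tables.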

Additional observations from a re-analysis of the deposited data

How the results depend on the processing

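Of 81 pairs of a gene and a comparison, 28 were called, all 28 kept their direction under every alternative run, and 15 kept their call under all of them; 11 lost it without some 1 library. Of the 53 pairs not called, 9 gained a call under some alternative, and signs changed in 42 of 735 of their alternative values, at sizes up to 0.254. The cause of these changes was not tested.

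Members called went from 3 to 0 for late SV40-I against OT-I cells and from 2 to 0 for late SV40-I against marker-high cells without the 3 hepatocyte-rich libraries, a fit with fewer libraries in which OT-I has 1 library assumed to vary like the other groups. For late OT-I against naive cells 2 became 1 without those libraries, 1 with RLE factors and 4 with the replicate block. For late SV40-I against marker-high cells 2 became 1 without a filter and 0 with only the groups compared, and DESeq2 called 1 in place of 0 between marker-high and marker-low cells. Beyond the count for late OT-I against naive, the block changed late SV40-I against naive from 5 to 6 and no further count of members; it called Ptpn22 in late SV40-I (0.99, adjusted p = 0.0289) and late OT-I cells (1.11, adjusted p = 0.0349) and Cblb in late OT-I cells (0.91, adjusted p = 0.0328). Outside marker-high against naive cells the libraries share only a number, with correlations of deviations between -0.312 and 0.32, and 0 to 5 of 6 libraries correlated best with their own number. Without 1 library at a time, the counts were 1 to 2 for late SV40-I against OT-I, 1 for late OT-I against naive, 3 to 5 for marker-high against naive, 2 to 3 for marker-low against naive, 0 to 3 for late SV40-I against marker-high, 0 to 2 for TOX-GFP against GFP and 5 to 7 for GFP against naive.

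Signs changed for these uncalled values. Without the hepatocyte-rich libraries, late SV40-I differed from OT-I cells by -0.053 for Lck and 0.254 for Ptpn22, and Lck differed from naive cells by 0.031 in late SV40-I and 0.084 in late OT-I. With library totals alone, Zap70 was 0.009 between marker-high and marker-low cells and Ptpn22 was 0.14 between GFP cultures and naive cells. Cbl in late OT-I against naive cells was -0.012 with DESeq2, -0.015 with RLE factors, -0.022 with the stricter filter, -0.012 with only those groups and -0.048 with all 19 libraries. Without 1 library at a time, late SV40-I against OT-I ran from -0.142 to 0.185 for Lck, -0.151 to 0.373 for Ptpn6 and -0.306 to 0.208 for Ptpn22. Marker-high against marker-low ran from -0.416 to 0.03 for Fyn, -0.066 to 0.028 for Zap70, -0.141 to 0.035 for Lcp2, -0.276 to 0.099 for Ptpn6, -0.085 to 0.866 for Ptpn22 and -0.153 to 0.328 for Cblb. Against naive cells, Lck ran from -0.254 to 0.047 in late SV40-I and -0.224 to 0.018 in late OT-I, Cbl from -0.147 to 0.132 in late OT-I and -0.25 to 0.01 in marker-low, and Ptpn22 from -0.113 to 0.839 in marker-high and -0.195 to 0.184 in marker-low cells. Late SV40-I against marker-high ran from -0.067 to 0.488 for Lat and -0.01 to 0.514 for Ptpn6. TOX-GFP against GFP ran from -0.478 to 0.15 for Zap70, -0.295 to 0.007 for Lat, -0.158 to 0.005 for Lcp2, -0.245 to 0.064 for Ptpn6 and -0.005 to 0.14 for Cbl.

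Counts of all genes called moved by over 1.5 times with DESeq2, from 1479 to 2507 (late SV40-I against OT-I), 196 to 751 (marker-high against marker-low), 1206 to 2446 (late OT-I against naive), 2754 to 4477 (marker-low against naive), 874 to 2266 (late SV40-I against marker-high) and 0 to 494 (TOX-GFP against GFP). With only the groups compared 196 became 4 and 874 became 325, with all 19 libraries 196 became 311, and without a filter 0 became 6 between the cultures. Without the hepatocyte-rich libraries 1479 became 227, 1206 became 414 and 874 became 280. Without 1 library at a time, marker-high against marker-low had 38 to 159 genes (from 196), late SV40-I against marker-high 311 to 1669 (from 874), TOX-GFP against GFP 0 to 1400 (from 0), late SV40-I against OT-I 872 to 1111 (from 1479), marker-low against naive 1402 to 2174 (from 2754), marker-high against naive 2414 to 3581 (from 3841), late OT-I against naive 773 to 861 (from 1206) and GFP against naive 3760 to 5324 (from 6057). Each value of the 9 genes rests on 272 counts or more.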
